A study of Homo sapiens with 27 samples.

Results

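The genes described here are 50 interferon stimulated genes, chosen by symbol from a list and read from the rows with those symbols in 3 read count tables that together list 27546 gene symbols. All 50 were listed in the DU145 and PC3 tables, and 48 in the 22Rv1 table (all but SAMD9L and CXCL10). The libraries were bulk, strand-specific mRNA-seq libraries of 3 established human prostate cancer cell lines. 22Rv1 came from a xenograft, DU145 came from a brain metastasis and PC3 from a bone metastasis. In each line, 3 libraries carried a control guide RNA (control gRNA #1, genotype given as WT) and 6 carried a guide against RIPK2 (genotype given as RIPK2 knockout). One RIPK2 guide differed by line (gRNA #1 for 22Rv1, gRNA #2 for both other lines) and the other, gRNA #10, was shared by all 3 lines, with 3 libraries for each guide and line. RIPK2 is the kinase that passes signals from the bacterial sensors NOD1 and NOD2 to NF-kB. The labels name no treatment, and do not say whether a guide population was a clone or a pool, or whether replicates were separate cultures. The p-values therefore measure only the spread between these libraries, which may be technical. Both RIPK2 guides of a line were compared with the same 3 control libraries, so the guide contrasts of a line are not independent of each other.

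Interferon stimulated genes are switched on when interferons bind their receptors on the cell surface. The receptors activate JAK kinases, which activate STAT proteins, and a complex that contains STAT2 and IRF9 then binds a DNA element called the interferon stimulated response element (ISRE). Interferon gamma acts mainly through a different element, the gamma activated site (GAS). The products sense foreign RNA, block viral entry, translation and budding, or feed back on the pathway, and tumour cells can carry a low level of this programme without added interferon.

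Promoter sequences of some of the genes described below are shown first, because several of them carry the letters of the ISRE. They were read from RefSeq windows of assembly GRCh38.p14, which run from 250 bases before to 50 bases after each annotated start, and are given 5′ to 3′ on the strand of the gene. For the first 3 genes, only the part before the start is printed. Capitals mark matches to GAAANNGAAA, on either strand, for the ISRE. IFIT1 (chr10:89392373-89392622, plus strand) held 2 matches that begin at -116 and -103 from the start. IFI44L (chr1:78620198-78620447, plus strand) held 2 matches, at -164 and -73, inside a stretch of 85 bases that occurs 2 times, 91 bases apart. HERC6 (chr4:88378602-88378851, plus strand) held no match, and is shown because its level changed in all 3 lines.
IFIT1: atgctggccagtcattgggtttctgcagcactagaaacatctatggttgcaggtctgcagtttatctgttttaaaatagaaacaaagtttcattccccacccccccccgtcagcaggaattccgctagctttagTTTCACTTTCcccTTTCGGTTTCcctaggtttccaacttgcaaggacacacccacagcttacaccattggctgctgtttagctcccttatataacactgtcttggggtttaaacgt
IFI44L: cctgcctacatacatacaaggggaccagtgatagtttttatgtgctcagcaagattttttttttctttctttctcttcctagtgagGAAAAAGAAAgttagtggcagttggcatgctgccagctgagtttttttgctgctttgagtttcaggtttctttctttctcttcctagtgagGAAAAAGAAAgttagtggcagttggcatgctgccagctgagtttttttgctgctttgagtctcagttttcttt
HERC6: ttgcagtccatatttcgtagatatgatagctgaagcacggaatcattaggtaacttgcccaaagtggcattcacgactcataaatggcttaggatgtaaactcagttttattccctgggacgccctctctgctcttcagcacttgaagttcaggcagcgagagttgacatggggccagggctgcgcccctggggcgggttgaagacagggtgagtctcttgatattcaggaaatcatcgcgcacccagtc

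Shorter stretches around 1 or more of the matches are given for 7 other genes whose values follow. They are MX1 (chr21:41431839-41431878, plus strand), IFI6 (chr1:27672261-27672363, minus strand), BST2 (chr19:17405730-17405775, minus strand), IFITM1 (chr11:313985-314024, plus strand), ISG15 (chr1:1013369-1013414, plus strand), HERC5 (chr4:88456979-88457069, plus strand) and DTX3L (chr3:122564317-122564341, plus strand). The DTX3L match, beginning at -6, runs past the DTX3L start. It also falls in a window of the neighbouring gene PARP9, which reads in the opposite direction and overlaps DTX3L.
MX1: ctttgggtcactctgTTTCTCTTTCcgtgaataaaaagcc
IFI6: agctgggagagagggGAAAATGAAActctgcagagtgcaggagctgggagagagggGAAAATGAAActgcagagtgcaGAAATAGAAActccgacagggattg
BST2: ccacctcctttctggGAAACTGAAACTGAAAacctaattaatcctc
IFITM1: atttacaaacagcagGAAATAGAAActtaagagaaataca
ISG15: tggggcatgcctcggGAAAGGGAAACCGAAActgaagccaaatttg
HERC5: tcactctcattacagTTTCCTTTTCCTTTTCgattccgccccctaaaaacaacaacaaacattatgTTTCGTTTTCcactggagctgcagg
DTX3L: gacctccagggaagcGAAACTGAAA

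IRF1 is shown for the other element. Its window held no ISRE match, but 1 match to TTCNNNGAA, the letters of the GAS, marked in capitals in the stretch chr5:132490874-132490912 on the minus strand, beginning at -124.
IRF1: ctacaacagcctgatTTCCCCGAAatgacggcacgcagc

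Of the 50 genes, 40 had a window in the promoter table, and 27 of those 40 (67.5%) held at least 1 ISRE match, against 1195 of 27305 genes (4.38%) in the whole table. A GAS match was present in 13 of the 40 (32.5%), against 9.38% of all genes. The 13 genes with a window and no ISRE match were CMPK2, CXCL11, DDX58, HERC6, IFI35, IRF1, IRF9, OAS1, SAMD9L, SP110, STAT2, UBE2L6 and XAF1. OASL, DHX58, OAS2, TRIM22, MX2, IFIT2, GBP2, IRF7, IFITM2 and USP18 had no window. A match describes letters only, and does not show that a factor binds there.

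**Figure D1:**
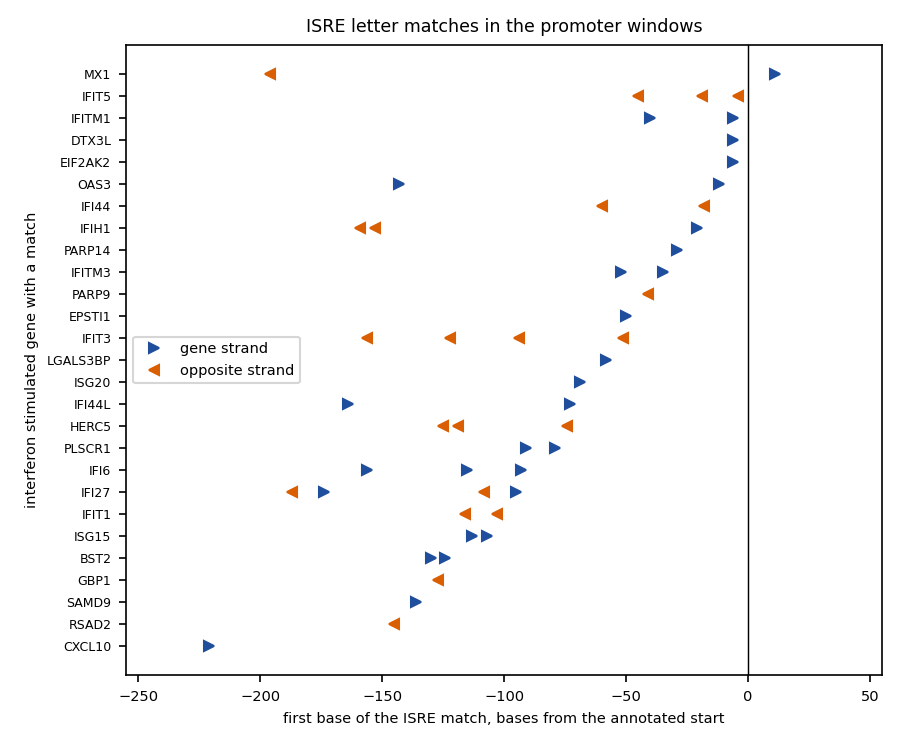
Position of each ISRE letter match in the promoter windows of the 27 genes that held one. The x axis is the first base of the match in bases from the annotated start, each row is a gene, and triangles point right for a match on the gene strand and left for one on the opposite strand. Some genes have several annotated starts and so several windows. Matches of a gene can therefore refer to different starts, and the same site can be drawn more than once. Most matches lie upstream of the start of their window, and MX1 also has one just after a different start.

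Library totals ran from 17958558 to 20650819 counts, so the limit that a count of 0 allows (3 counts) was 0.140 to 0.170 CPM (a count scaled to the total of its library). RIPK2 itself was lower with both guides in 22Rv1 (-0.94 and -1.63 on the log2 scale) and PC3 (-1.55 and -1.15), and with gRNA 2 in DU145 (-1.84), while the value with gRNA 10 in DU145 was -0.29 (SE 0.11, adjusted p = 0.0614 by edgeR). All 3 of those gRNA 10 libraries lay below the control libraries (35.5, 32.8 and 33.6 against 38.1, 43.1 and 42.2 CPM), and the difference was called by DESeq2, in a fit of only the libraries compared and without any 1 gRNA 2 library. The summed counts of 4 epithelial markers (EPCAM, KRT8, KRT18, CDH1) were at least 14749 in every library. Of the leukocyte markers, PTPRC had at most 6 counts and CD68 at most 8 in any library, and ITGAM had at most 59 in DU145 and 3 in the other lines. Some libraries stood apart from the others of their group. Replicate 3 of gRNA 1 in 22Rv1 had 16.7% of counts on mitochondrial genes, against 2.10% and 1.92%, and replicate 1 of the 22Rv1 control had 0.515%, against 1.24% and 1.28%. Replicate 3 of gRNA 2 in DU145 had a TMM scaling factor of 0.902, against 0.988 and 1.01, and a mitochondrial share of 2.89%, against 1.75% and 2.12%, while the DU145 gRNA 10 libraries had 2.46% to 2.77%. All levels below are CPM on one scale of TMM-scaled library sizes over the 27 libraries, listed by replicate number, and changes are log2 fold changes from edgeR. Each SE is the absolute log2 change divided by the square root of the F statistic of its edgeR test. It is not a separate estimate of the error, and may be too small near the detection limit. In bulk libraries, fewer cells with a transcript and less transcript per cell cannot be told apart.

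More genes of the list were called in PC3 than in the other lines, and so were more of all genes tested. With gRNA 2, 36 of the 48 genes tested were lower than control and 3 were higher (OASL, CXCL11 and LGALS3BP), where 31.5% of all genes tested were lower and 32.1% higher. With gRNA 10, 36 were higher and 7 were lower (IRF1, UBE2L6, SAMD9, SAMD9L, GBP1, GBP2 and LGALS3BP), where 37.9% of all genes tested were higher and 35.6% lower. Compared directly, 42 genes were higher with gRNA 10 than with gRNA 2 and 3 were lower (OASL, GBP2 and LGALS3BP), against 36.9% and 36.5% of all genes. The median change over the genes tested was -0.94 with gRNA 2, 0.82 with gRNA 10 and 1.92 between the guides, and over all genes tested in PC3 it lay at 0.01, 0.01 and -0.00. The 3 libraries of gRNA 10 did not overlap those of gRNA 2 for 47 of the 50 genes (43 above, 4 below). The share of all genes without overlap was not taken, so this count is a description and not a result about the list. DHX58 and CXCL10 did not pass the filter on low counts. CXCL11 and EPSTI1 passed it only through the RIPK2 libraries, where they were high, so they had to differ.

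**Figure D2:**
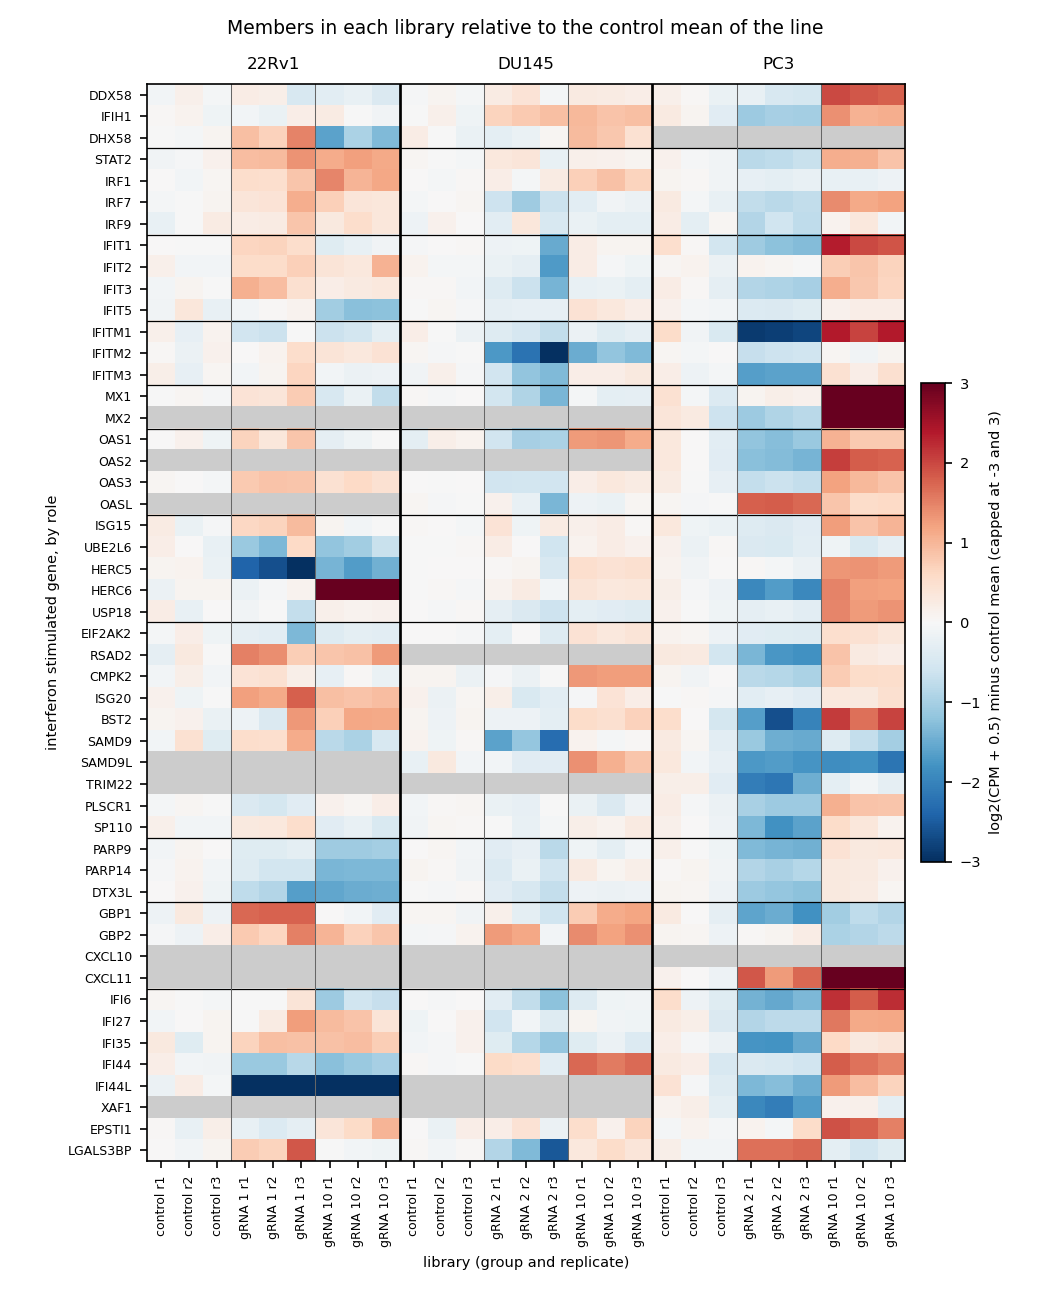
Level of each of the 50 genes in each of the 27 libraries, as the difference of log2(CPM + 0.5) from the mean of the control libraries of the same line, cut at 3 in either direction. Rows are genes by role, columns are libraries, and grey marks genes with fewer than 10 counts in every library of the line or no row. In PC3 most rows are below control with gRNA 2 and above it with gRNA 10.

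The RNA sensors of PC3 followed the pattern of the whole list. DDX58 (RIG-I), which detects viral RNA ends, had CPM of 15.6, 14.5 and 12.2 in control, 11.9, 9.90 and 9.55 with gRNA 2 and 57.0, 52.4 and 49.5 with gRNA 10. The 3 groups did not overlap, with gRNA 2 lowest and gRNA 10 highest. The change was -0.42 (SE 0.10, adjusted p = 0.000797 by edgeR) with gRNA 2 and 1.93 (SE 0.08, adjusted p = 1.64e-17 by edgeR) with gRNA 10. IFIH1 (MDA5), which detects long double-stranded RNA, had CPM of 12.6, 10.9 and 8.04 in control, 4.56, 4.93 and 4.88 with gRNA 2 and 27.5, 21.7 and 22.4 with gRNA 10. These groups did not overlap either, at -1.12 (SE 0.17, adjusted p = 5.68e-05 by edgeR) and 1.20 (SE 0.13, adjusted p = 8.95e-07 by edgeR). DHX58 (LGP2), a regulator of both sensors, had at most 2 counts in any PC3 library, which is under the detection limit.

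Among the transcription factors, STAT2 and IRF7 separated all 3 PC3 groups. STAT2, a subunit of the complex that binds the ISRE, had CPM of 182, 162 and 155 in control, 94.4, 98.3 and 105 with gRNA 2 and 351, 349 and 299 with gRNA 10. It fell with gRNA 2, at -0.73 (SE 0.08, adjusted p = 1.12e-05 by edgeR), and rose with gRNA 10, at 1.02 (SE 0.07, adjusted p = 3.2e-07 by edgeR). IRF7, which drives interferon alpha genes, had CPM of 37.7, 30.1 and 26.9 in control, 18.6, 17.6 and 18.4 with gRNA 2 and 84.5, 69.5 and 73.0 with gRNA 10. Its changes were -0.78 (SE 0.14, adjusted p = 0.00111 by edgeR) and 1.28 (SE 0.12, adjusted p = 8.39e-06 by edgeR). IRF9, the DNA-binding subunit of the same complex, stood at 3.76, 2.45 and 3.30 CPM in control, 1.47, 1.89 and 1.63 with gRNA 2 and 3.39, 4.04 and 2.94 with gRNA 10. It was lower with gRNA 2, at -0.92 (SE 0.20, adjusted p = 0.00015 by edgeR), and overlapped control with gRNA 10, at 0.14 (SE 0.17, adjusted p = 0.443 by edgeR). 48.4% of the exon bases of IRF9 overlap a gene on the same strand, so its count is uncertain. IRF1, a factor induced strongly by interferon gamma, stood at 25.7, 24.9 and 22.7 CPM in control, 20.5, 19.9 and 20.8 with gRNA 2 and 21, 21 and 21.9 with gRNA 10. It was lower with both guides, at -0.25 (SE 0.07, adjusted p = 0.00144 by edgeR) and -0.18 (SE 0.06, adjusted p = 0.0123 by edgeR), and the second call is lost without control replicate 1 (edgeR adjusted p = 0.0678).

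The MX genes, which encode GTPases that trap incoming viral capsids, rose more with gRNA 10 than any other gene of the list except CXCL11 and EPSTI1, which had at most 2 counts in a control library. MX1 had CPM of 23.8, 16.5 and 12.9 in control, 18.1, 19.4 and 18.7 with gRNA 2 and 474, 358 and 357 with gRNA 10. Control and gRNA 2 overlapped, at 0.10 (SE 0.28, adjusted p = 0.786 by edgeR), while gRNA 10 lay far above both, at 4.5 (SE 0.21, adjusted p = 1.22e-06 by edgeR) against control. MX2, its neighbour on chromosome 21, stood at 3.43, 3.20 and 1.49 CPM in control, 0.944, 1.15 and 1.26 with gRNA 2 and 39.1, 29.8 and 24.4 with gRNA 10. It rose with gRNA 10, at 3.54 (SE 0.29, adjusted p = 2.41e-05 by edgeR), and the gRNA 2 value was -1.26 (SE 0.59, adjusted p = 0.109 by edgeR), called without control replicate 3 or gRNA 10 replicate 1 or 3.

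Of the 4 IFIT genes, which bind viral RNA and stop its translation, 3 were lower with gRNA 2 and all 4 were higher with gRNA 10. The same shares over all genes tested were 31.5% and 37.9%. IFIT1 had CPM of 34.7, 24.9 and 16.5 in control, with replicate 1 highest and replicate 3 lowest. Other genes of the list shared this order in PC3 control, including IRF7, MX1, IFITM1, BST2, OAS2 and IFI6, so their calls are not separate observations. The order was not shared by IRF9, OASL and LGALS3BP. With gRNA 2 IFIT1 had 11.4, 10.1 and 9.55 CPM, and with gRNA 10 it had 126, 97.8 and 90.9 CPM, so no group overlapped another. The changes were -1.28 (SE 0.34, adjusted p = 0.0158 by edgeR) and 2.07 (SE 0.25, adjusted p = 0.000241 by edgeR), and the first is no longer called without gRNA 2 replicate 3 (edgeR adjusted p = 0.0512). IFIT3 changed by -0.97 and 0.87, and IFIT5 by -0.41 and 0.19, the latter a call lost without control replicate 2 or 3 (edgeR adjusted p up to 0.0862). IFIT2 rose with gRNA 10, at 0.76 (SE 0.06, adjusted p = 3.34e-11 by edgeR), and its gRNA 2 libraries overlapped control.

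The IFITM genes, which block virus fusion at endosomes and the cell surface, were all lower with gRNA 2, as were 31.5% of all genes tested. IFITM1 had CPM of 12.8, 7.88 and 6.12 in control, 0.734, 0.786 and 0.839 with gRNA 2 and 46.8, 36.3 and 46.3 with gRNA 10. No group overlapped another, and the changes were -3.48 (SE 0.51, adjusted p = 0.000786 by edgeR) and 2.29 (SE 0.23, adjusted p = 7.16e-05 by edgeR). Compared directly, IFITM1 was higher with gRNA 10 than with gRNA 2, at 5.77 (SE 0.36, adjusted p = 5.04e-06 by edgeR). IFITM3 had means of 244 ± 32.5 CPM in control, 79.1 ± 1.49 with gRNA 2 and 318 ± 32.8 with gRNA 10 (SD, n = 3), and fell with gRNA 2, with a change of -1.61 (SE 0.12, adjusted p = 1.78e-05 by edgeR). IFITM2 fell with gRNA 2, at -0.63 (SE 0.05, adjusted p = 1.16e-11 by edgeR), and its gRNA 10 libraries overlapped control. IFITM1 and IFITM2 overlap on the same strand (32.5% and 22.7% of their exon bases), so reads may be split between them. BST2 (tetherin), which holds budding viruses on the cell, had CPM of 13.3, 9.16 and 6.12 in control, 2.57, 1.05 and 1.89 with gRNA 2 and 40.4, 29.4 and 38.5 with gRNA 10. It separated the 3 groups in the same order as IFITM1, at -2.36 (SE 0.48, adjusted p = 0.00451 by edgeR) and 1.94 (SE 0.27, adjusted p = 0.000495 by edgeR).

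The OAS genes make the messenger that activates RNase L, and their inactive relative OASL did not follow them. OAS2 had CPM of 48.1, 38.7 and 30.2 in control, 15.9, 15.2 and 14.4 with gRNA 2 and 163, 136 and 132 with gRNA 10, at -1.35 (SE 0.21, adjusted p = 0.00126 by edgeR) and 1.90 (SE 0.16, adjusted p = 3.43e-05 by edgeR). OAS1 and OAS3, from the same cluster on chromosome 12, moved the same way (OAS1 -1.21 and 0.88, OAS3 -0.70 and 1.03). OASL, elsewhere on chromosome 12, had CPM of 5.26, 4.85 and 4.95 in control, 18.6, 19.0 and 17.6 with gRNA 2 and 9.30, 7.52 and 7.82 with gRNA 10. It was highest with gRNA 2, at 1.88 (SE 0.10, adjusted p = 5.88e-17 by edgeR), and in between with gRNA 10, at 0.73 (SE 0.11, adjusted p = 8.63e-07 by edgeR).

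ISG15 is a small protein that is joined to other proteins through UBE2L6 and HERC5 and removed by USP18. ISG15 had CPM of 146, 107 and 101 in control, 88.7, 86.7 and 92.3 with gRNA 2 and 279, 212 and 236 with gRNA 10. All gRNA 10 libraries were above all others, at 1.05 (SE 0.16, adjusted p = 0.000902 by edgeR), and the gRNA 2 value was -0.39 (SE 0.17, adjusted p = 0.0869 by edgeR), called lower by DESeq2 (adjusted p = 0.0341). HERC6 had CPM of 21.9, 18.8 and 17.1 in control, 4.67, 5.66 and 4.67 with gRNA 2 and 54.5, 45.7 and 45 with gRNA 10. It separated all groups, at -1.93 (SE 0.13, adjusted p = 8.91e-11 by edgeR) and 1.34 (SE 0.08, adjusted p = 3.12e-11 by edgeR). HERC5 and USP18 rose with gRNA 10, by 1.42 and 1.47, and neither was called with gRNA 2. UBE2L6 was lower with both guides, at -0.39 and -0.27.

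Among 10 further antiviral effectors, all were lower with gRNA 2, while 6 were higher and 2 lower with gRNA 10. Of all genes tested, 31.5% were lower with gRNA 2, and 37.9% were higher and 35.6% lower with gRNA 10. RSAD2 (viperin), an enzyme that makes a chain-terminating nucleotide, had CPM of 8.37, 8.31 and 4.47 in control, 2.31, 1.68 and 1.57 with gRNA 2 and 12.7, 8.24 and 7.87 with gRNA 10. It fell with gRNA 2, at -1.91 (SE 0.40, adjusted p = 0.00455 by edgeR) and overlapped control with gRNA 10, at 0.46 (SE 0.28, adjusted p = 0.18 by edgeR). SAMD9L, a growth-restraining antiviral factor, departed from the list, with CPM of 17.2, 12.9 and 11.3 in control, 3.77, 3.93 and 3.62 with gRNA 2 and 3.39, 3.48 and 2.59 with gRNA 10. It was lower with both guides, at -1.86 (SE 0.15, adjusted p = 5.15e-10 by edgeR) and -2.12 (SE 0.15, adjusted p = 6.47e-11 by edgeR). Its neighbour SAMD9 was lower too, at -1.43 (SE 0.23, adjusted p = 0.0011 by edgeR) and -0.72 (SE 0.21, adjusted p = 0.017 by edgeR), and the second call is lost without gRNA 10 replicate 2 (edgeR adjusted p = 0.0512). TRIM22, a ubiquitin ligase, fell with gRNA 2, at -2.73 (SE 0.29, adjusted p = 1.19e-09 by edgeR) from 2.96 ± 0.669 to 0.437 ± 0.259 CPM (SD, n = 3), and its gRNA 10 value was -0.26 (SE 0.19, adjusted p = 0.221 by edgeR), called without control replicate 3 (edgeR adjusted p = 0.049). EIF2AK2 (PKR), the kinase that stops translation on double-stranded RNA, changed by -0.36 and 0.45. CMPK2, ISG20, PLSCR1 and SP110 were lower with gRNA 2, between -1.66 (SP110) and -0.30 (ISG20), and higher with gRNA 10, between 0.37 (SP110) and 0.93 (PLSCR1). The gRNA 2 call of ISG20 is lost with DESeq2 (adjusted p = 0.0507).

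PARP9, PARP14 and DTX3L, genes of ADP-ribosylation and ubiquitin enzymes on chromosome 3, fell with gRNA 2, at -1.40, -0.90 and -1.16. They rose with gRNA 10 by 0.36, 0.25 and 0.22, all under the median of the list. IFI6, a mitochondrial and endoplasmic reticulum protein that limits cell death, had CPM of 70.9, 44.5 and 38.0 in control, 18, 16.8 and 19.0 with gRNA 2 and 226, 175 and 229 with gRNA 10. No group overlapped another, and the changes were -1.50 (SE 0.30, adjusted p = 0.00405 by edgeR) and 2.06 (SE 0.23, adjusted p = 0.000165 by edgeR). IFI35, which stabilises signalling partners, had CPM of 30.5, 26 and 23.3 in control, 7.44, 7.28 and 8.86 with gRNA 2 and 40.1, 32.6 and 34.4 with gRNA 10, at -1.74 (SE 0.12, adjusted p = 9.27e-09 by edgeR) and 0.44 (SE 0.10, adjusted p = 0.000754 by edgeR). XAF1, a binding partner of the apoptosis inhibitor XIAP, had 33, 35 and 23 counts in control, 1, 0 and 3 with gRNA 2 and 35, 36 and 24 with gRNA 10. Its summed control level was 23.2 times that with gRNA 2 (95% exact interval 8.75 to 86.9, counting error only), and control and gRNA 10 overlapped. Of the exon bases of XAF1, 38.3% overlap a gene on the opposite strand, as do 22.0% for IRF1, 21.3% for IFITM3 and 20.9% for SP110. The strand setting of the counting is not given in the sources used here, so the counts of these 4 genes are uncertain. IFI27 followed the list, at -1.61 (SE 0.40, adjusted p = 0.000796 by edgeR) with gRNA 2 and 1.68 (SE 0.23, adjusted p = 1.71e-07 by edgeR) with gRNA 10. IFI44 rose with gRNA 10, at 1.68 (SE 0.16, adjusted p = 9.13e-06 by edgeR), and EPSTI1 went from 1 count in the 3 control libraries together to 72 with gRNA 10, a ratio of 68.9 (12 to 2759).

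The 3 tested genes best known as targets of interferon gamma did not move together in PC3. CXCL11, a chemokine that attracts T cells, had counts of 2, 1 and 0 in control, 29, 16 and 25 with gRNA 2 and 166, 181 and 195 with gRNA 10. The summed level with gRNA 10 was 173 times that of control (95% exact interval 58.9 to 841), and with gRNA 2 it was 22.9 times (7.52 to 114). CXCL10, its neighbour, had at most 4 counts in any PC3 library. GBP2, a GTPase that attacks intracellular pathogens, had CPM of 31.3, 30.6 and 26.3 in control, 30.2, 31.0 and 34.2 with gRNA 2 and 14.8, 15.8 and 16.9 with gRNA 10. It was lower with gRNA 10, at -0.88 (SE 0.07, adjusted p = 1.01e-11 by edgeR), and its gRNA 2 libraries overlapped control. GBP1 was lower with both guides, at -2.0 (SE 0.20, adjusted p = 3.41e-10 by edgeR) and -1.03 (SE 0.17, adjusted p = 3.18e-06 by edgeR). LGALS3BP, a secreted glycoprotein, had CPM of 122, 102 and 103 in control, 341, 342 and 358 with gRNA 2 and 88.0, 74.4 and 83.6 with gRNA 10. It was highest with gRNA 2, at 1.68 (SE 0.07, adjusted p = 1.05e-09 by edgeR), and lowest with gRNA 10, at -0.39 (SE 0.08, adjusted p = 0.000599 by edgeR).

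**Figure D3:**
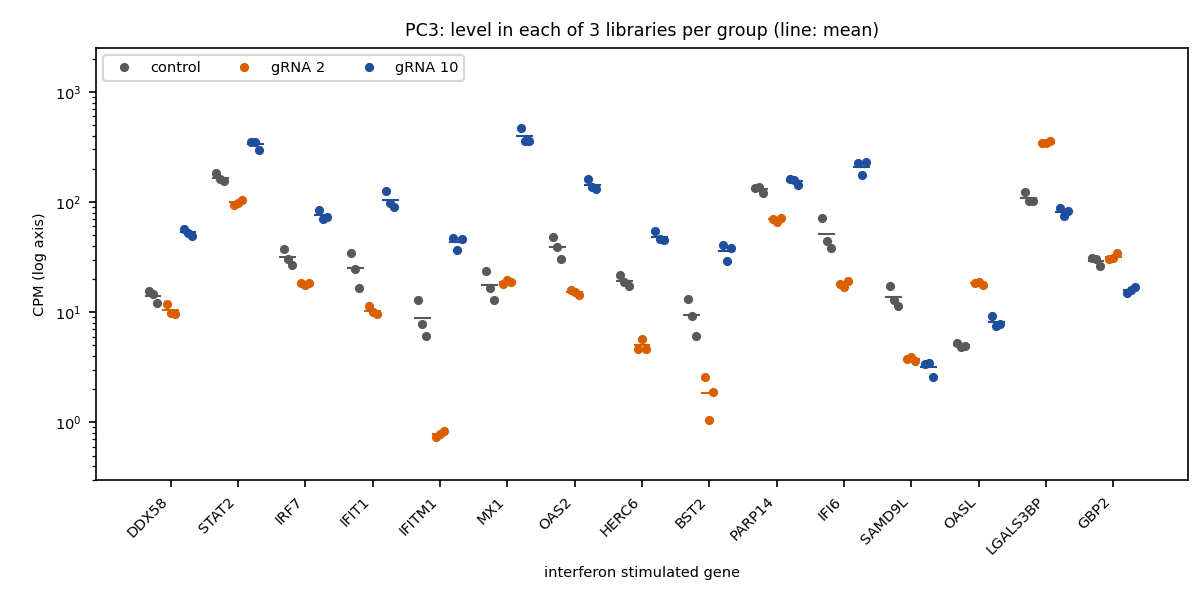
CPM in each of the 9 PC3 libraries for genes named in the text, on a log axis, with points for libraries and short lines for the mean of each group of 3. MX1 lies between 357 and 474 CPM with gRNA 10 and does not exceed 23.8 CPM in the other libraries, while OASL and LGALS3BP are highest with gRNA 2.

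In DU145 the list again stood higher with gRNA 10 than with gRNA 2, with fewer genes called than in PC3, both of the list and of all genes tested. With gRNA 2, 16 of the 38 genes tested were lower than control and 2 were higher (IFIH1 and GBP2), where 17.0% of all genes tested were lower and 17.1% higher. With gRNA 10, 14 were higher and 2 were lower (IFITM2 and USP18), where 20.2% were higher and 19.8% lower. Compared directly by edgeR, 19 were higher with gRNA 10 than with gRNA 2 and 0 were lower, with 23 of the 38 at an unadjusted p under 0.05, where 19.6% of all genes were higher and 19.2% lower. The median change was -0.44 with gRNA 2, 0.17 with gRNA 10 and 0.56 between the guides, against 0.01, 0.00 and -0.02 over all genes tested in DU145. Without gRNA 2 replicate 3, which stood apart, 5 genes were higher with gRNA 2 and 22 were called with gRNA 10, of which 6 were lower. Without control replicate 3, 9 genes were called with gRNA 10. In a fit of only the libraries compared, 28 were called with gRNA 10, 18 higher and 10 lower, and 1 was higher with gRNA 2. The shares of all genes called in these refits were not taken, so the shifts are not results about the list. The USP18 call is lost without control replicate 1 or 3 or gRNA 10 replicate 2 or 3 (edgeR adjusted p up to 0.0713).

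The sensor IFIH1 had CPM of 8.84, 10.00 and 8.09 in DU145 control, 14.6, 15.9 and 17.3 with gRNA 2 and 18.2, 16.5 and 17.1 with gRNA 10. Every RIPK2 library lay above every control library, at 0.83 (SE 0.12, adjusted p = 0.000572 by edgeR) and 0.93 (SE 0.12, adjusted p = 0.000168 by edgeR). DDX58 did not pass the test with either guide, at 0.22 (SE 0.13, adjusted p = 0.229 by edgeR) and 0.24 (SE 0.13, adjusted p = 0.184 by edgeR), and was called higher with both without gRNA 2 replicate 3. DHX58 had CPM of 0.419, 0.279 and 0.189 in control, 0.144, 0.188 and 0.321 with gRNA 2 and 1.03, 0.883 and 0.586 with gRNA 10. It was higher with gRNA 10, at 1.46 (SE 0.38, adjusted p = 0.0116 by edgeR), and this call is lost without control replicate 3 or gRNA 10 replicate 1 (edgeR adjusted p up to 0.0537). DHX58 passed the filter on low counts only through the gRNA 10 libraries, so it had to differ, and its calls are no support for the counts.

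Of the transcription factors, IRF1 rose in DU145 with gRNA 10, where its CPM was 44.7, 49.9 and 43.4 against 27.3, 25.9 and 27.9 in control and 31.2, 26.1 and 32.0 with gRNA 2. Control and gRNA 2 overlapped, and the gRNA 10 change was 0.75 (SE 0.10, adjusted p = 0.000231 by edgeR). STAT2 had means of 93 ± 3.81 CPM in control, 105 ± 22.0 with gRNA 2 and 101 ± 2.24 with gRNA 10 (SD, n = 3), and passed the test with neither guide (edgeR adjusted p = 0.309 and 0.567), while without gRNA 2 replicate 3 it was called higher with gRNA 2 (edgeR adjusted p = 0.000606). IRF7 was lower with gRNA 2, at -0.81 (SE 0.15, adjusted p = 0.0024 by edgeR), and its gRNA 10 value was -0.22 (SE 0.14, adjusted p = 0.239 by edgeR). IRF9 had 3 to 14 counts in the DU145 libraries and did not pass the filter.

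IFITM2 changed most with gRNA 2 in DU145 among the genes with ample counts. Its CPM was 16.1, 15 and 15.5 in control, 4.38, 2.96 and 0.748 with gRNA 2 and 5.21, 6.57 and 5.86 with gRNA 10. The 3 groups did not overlap, at -2.50 (SE 0.37, adjusted p = 0.0008 by edgeR) and -1.41 (SE 0.35, adjusted p = 0.00854 by edgeR). SAMD9 had CPM of 10.5, 8.88 and 10.1 in control, 2.88, 4.13 and 1.60 with gRNA 2 and 10.6, 9.36 and 10.2 with gRNA 10. Only the gRNA 2 libraries were low, at -1.76 (SE 0.25, adjusted p = 0.000589 by edgeR) against control. LGALS3BP had CPM of 31.4, 28.9 and 31.4 in control, 16.3, 11.9 and 4.81 with gRNA 2 and 38.2, 44.7 and 39.2 with gRNA 10. It was lower with gRNA 2, at -1.46 (SE 0.30, adjusted p = 0.0045 by edgeR), with replicate 3 the lowest, and its gRNA 10 value was 0.40 (SE 0.29, adjusted p = 0.292 by edgeR), called higher without gRNA 2 replicate 3.

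IFI44, a protein that slows proliferation, had CPM of 1.63, 1.53 and 1.56 in DU145 control, 2.60, 2.44 and 1.18 with gRNA 2 and 6.39, 5.59 and 6.20 with gRNA 10. The gRNA 10 libraries were highest, at 1.93 (SE 0.25, adjusted p = 0.000188 by edgeR). GBP2 had CPM of 6.09, 6.14 and 6.86 in control, 16.1, 14.8 and 5.93 with gRNA 2 and 17.9, 15.3 and 17.2 with gRNA 10. It rose with gRNA 10, at 1.39 (SE 0.29, adjusted p = 0.00358 by edgeR), while with gRNA 2 it passed the test (0.95, SE 0.29, adjusted p = 0.0283 by edgeR) although replicate 3 lay below all control libraries. That gRNA 2 call is lost when any 1 control library, or gRNA 2 replicate 1 or 2, is left out (edgeR adjusted p up to 0.100). MX1 was lower with gRNA 2, from 27.4 ± 0.688 to 14.4 ± 4.10 CPM (SD, n = 3), at -0.92 (SE 0.17, adjusted p = 0.00282 by edgeR). The enzyme OAS3 was lower with gRNA 2 and higher with gRNA 10, at -0.56 (SE 0.07, adjusted p = 0.000232 by edgeR) and 0.24 (SE 0.07, adjusted p = 0.0159 by edgeR), on 3 control libraries of 91.6, 90.7 and 92 CPM. Its gRNA 10 call is lost when any 1 control library, or gRNA 10 replicate 2 or 3, is left out (edgeR adjusted p up to 0.0699).

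Of the genes tested in DU145, CMPK2 and SAMD9L, both near the detection limit in control, had the largest fitted changes with gRNA 10. CMPK2 had counts of 2, 2 and 0 in control, 1, 0 and 1 with gRNA 2 and 18, 17 and 17 with gRNA 10. SAMD9L had counts of 1, 6 and 2 in control, 2, 0 and 0 with gRNA 2 and 23, 17 and 13 with gRNA 10. Both genes passed the filter only through the gRNA 10 libraries, so they had to differ, and their calls are no support for the count. OAS1 was lower with gRNA 2 and higher with gRNA 10, at -2.02 (SE 0.44, adjusted p = 0.00581 by edgeR) and 1.72 (SE 0.28, adjusted p = 0.000891 by edgeR). IFITM3 was lower with gRNA 2, at -2.45 (SE 0.60, adjusted p = 0.0108 by edgeR), and GBP1 higher with gRNA 10, at 1.81 (SE 0.40, adjusted p = 0.00519 by edgeR).

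For IFIT1, IFIT2 and OASL in DU145, replicate 3 of gRNA 2 stood alone. IFIT1 had CPM of 35.3, 36.4 and 37.3 in control, 32.6, 33.3 and 12.3 with gRNA 2 and 42.3, 38.3 and 38.2 with gRNA 10, and did not pass the test with either guide. The same library had the highest EPCAM level of the 9 (147, 145 and 344 CPM with gRNA 2, against 57.9, 54.4 and 56.8 in control). The part of that library in the gRNA 2 results was not tested beyond leaving it out. The genes PARP9, PARP14 and DTX3L were all lower with gRNA 2, at -0.45, -0.39 and -0.52, and passed the test in neither direction with gRNA 10. The gRNA 2 calls of PARP9 and PARP14 are lost without control replicate 1 or 2, among other libraries (edgeR adjusted p up to 0.111 and 0.0866).

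In 22Rv1 the list did not move one way. With gRNA 1, 17 of the 40 genes tested were higher and 7 lower, where 25.6% of all genes tested were higher and 22.9% lower. With gRNA 10, 10 were higher and 11 lower, where 20.0% were higher and 20.6% lower. Between the guides, 5 were higher with gRNA 10 than with gRNA 1 (PLSCR1, EPSTI1, HERC5, HERC6 and IRF1) and 15 were lower, where 16.8% of all genes were higher and 18.8% lower. The median change was 0.42 with gRNA 1, -0.08 with gRNA 10 and -0.33 between the guides, against 0.02, 0.00 and -0.02 over all genes tested in 22Rv1. Without gRNA 1 replicate 3, the library with the high mitochondrial share, 8 genes were higher and 19 lower between the guides, 17 higher and 10 lower with gRNA 1, and 14 higher and 16 lower with gRNA 10. Without control replicate 1, 15 were higher and 7 lower with gRNA 1, and 9 higher and 10 lower with gRNA 10. Shares over all genes were not taken for these refits.

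**Figure D4:**
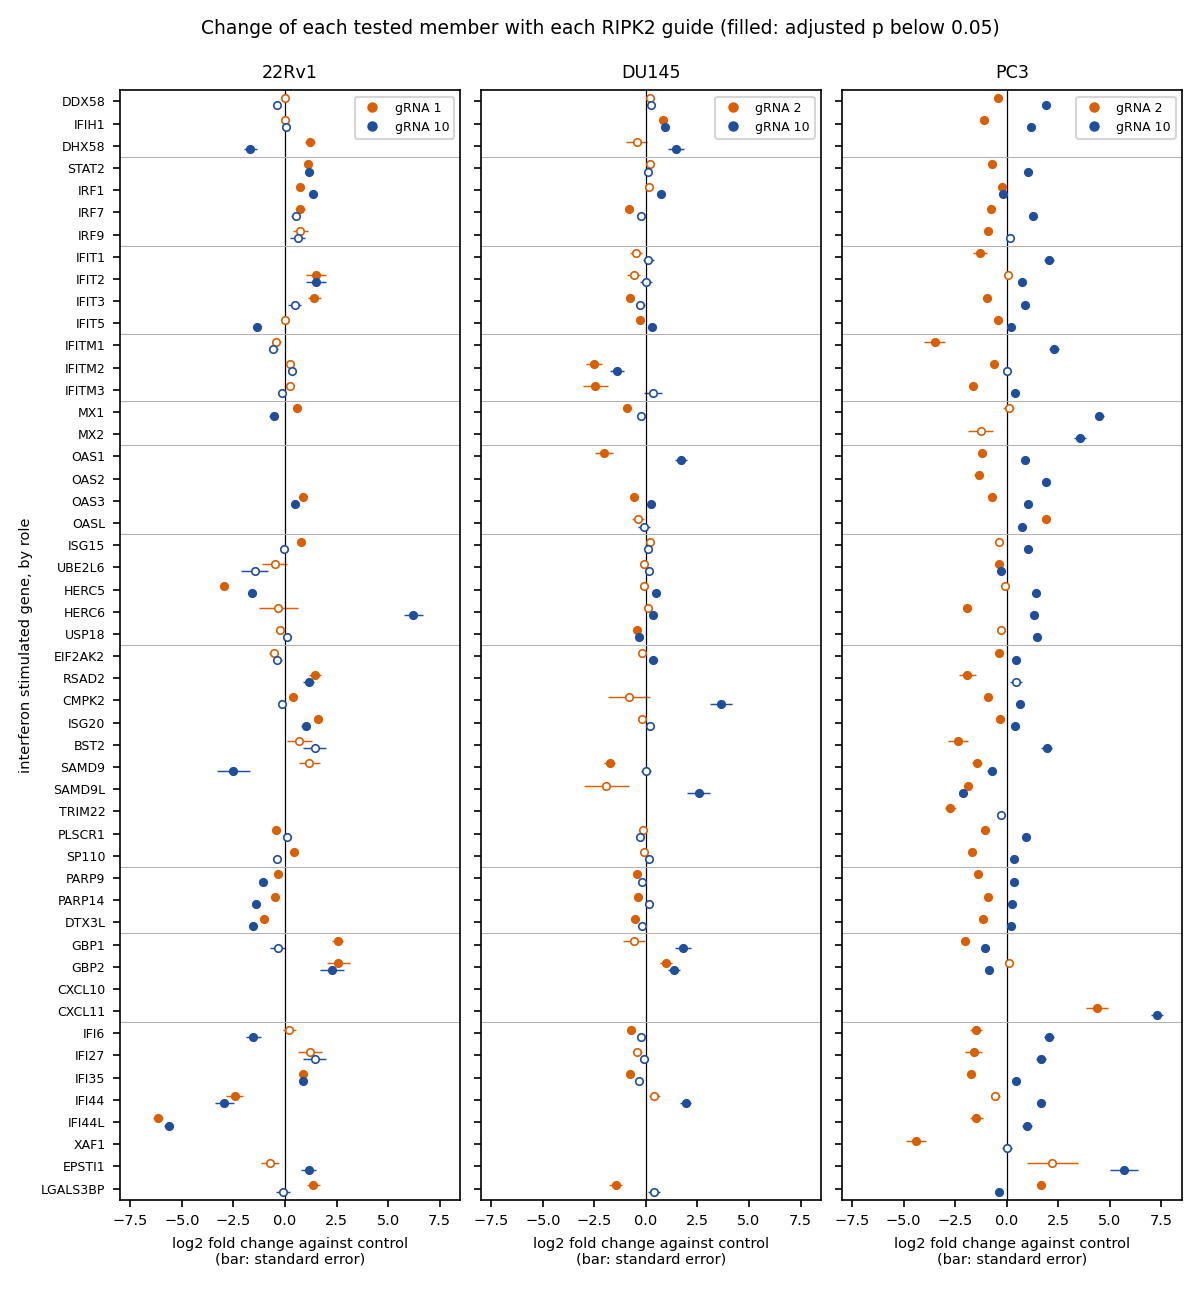
Log2 fold change of each tested gene with each RIPK2 guide against control, in one panel per line, with filled points for an edgeR adjusted p below 0.05. Bars show the SE, taken from the change and its F statistic, which may be too small for genes with few counts. In PC3 the gRNA 2 points lie mostly left of 0 and the gRNA 10 points mostly right of it, while in 22Rv1 IFI44L lies at -6.16 and -5.65 with the guides.

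IFI44L, a neighbour and relative of IFI44, had the largest fall in 22Rv1. Its CPM was 12.7, 16.8 and 13.8 in control, 0.203, 0.154 and 0.227 with gRNA 1 and 0.303, 0.353 and 0.202 with gRNA 10. Every RIPK2 library was far below every control library, at -6.16 (SE 0.25, adjusted p = 2.63e-08 by edgeR) and -5.65 (SE 0.23, adjusted p = 3.65e-08 by edgeR), and the counts there were close to the detection limit. At such counts these SE values may be too small. IFI44 was lower with both guides as well, at -2.45 and -2.94. Both genes passed the filter only through the control libraries, where they were high, so they had to differ. The values of the same pair in PC3 with gRNA 10 were 0.98 for IFI44L and 1.68 for IFI44.

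HERC5 and HERC6, neighbours on chromosome 4, moved in opposite directions in 22Rv1 with gRNA 10. HERC5, the main ligase that attaches ISG15, had CPM of 15.4, 15.7 and 12.6 in control, 2.33, 1.90 and 1.31 with gRNA 1 and 5.26, 4.24 and 4.99 with gRNA 10. The 3 groups did not overlap, with control highest, at -2.95 (SE 0.20, adjusted p = 1.25e-06 by edgeR) and -1.62 (SE 0.18, adjusted p = 4.8e-05 by edgeR). HERC6 had counts of 0, 2 and 2 in control, 0, 1 and 2 with gRNA 1 and 105, 111 and 123 with gRNA 10. HERC6 passed the filter only through the gRNA 10 libraries, which alone lay above the detection limit, at 82.9 times the summed control level (95% exact interval 32.1 to 306, counting error only).

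The genes PARP9, PARP14 and DTX3L were lower with both guides in 22Rv1. DTX3L, a ubiquitin ligase, had CPM of 132, 142 and 118 in control, 76.3, 70.8 and 41.4 with gRNA 1 and 43.7, 45.8 and 46.9 with gRNA 10. Both RIPK2 groups were below control, at -1.04 (SE 0.19, adjusted p = 0.00116 by edgeR) and -1.55 (SE 0.19, adjusted p = 9.75e-05 by edgeR). PARP14 had CPM of 80.9, 88.8 and 78.2 in control, 62.9, 56.0 and 56.3 with gRNA 1 and 31.6, 32.3 and 32.2 with gRNA 10. No group overlapped another, and the changes were -0.49 (SE 0.09, adjusted p = 0.00152 by edgeR) and -1.39 (SE 0.09, adjusted p = 1.18e-06 by edgeR). PARP9 changed by -0.33 and -1.09.

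STAT2 rose in 22Rv1 with both guides, with CPM of 20.9, 21.9 and 24.4 in control, 42.7, 43.3 and 57.3 with gRNA 1 and 48.8, 53.6 and 49.6 with gRNA 10. Control lay below both, at 1.11 (SE 0.13, adjusted p = 5.88e-05 by edgeR) and 1.15 (SE 0.13, adjusted p = 4.64e-05 by edgeR). IRF1 had CPM of 2.28, 2.11 and 2.36 in control, 3.44, 3.4 and 4.43 with gRNA 1 and 7.13, 5.09 and 5.65 with gRNA 10. It rose with both guides and separated the 3 groups, at 0.75 (SE 0.19, adjusted p = 0.00807 by edgeR) and 1.38 (SE 0.19, adjusted p = 0.000176 by edgeR). IRF7 was higher with gRNA 1, at 0.73 (SE 0.22, adjusted p = 0.0194 by edgeR), a call lost without control replicate 1 or 2 (edgeR adjusted p up to 0.0642), and its gRNA 10 value was 0.52 (SE 0.22, adjusted p = 0.0875 by edgeR), called higher without gRNA 1 replicate 3 (edgeR adjusted p = 0.00658). IRF9, at 0.584 ± 0.179 CPM in control (SD, n = 3), had 0.75 (SE 0.35, adjusted p = 0.101 by edgeR) and 0.61 (SE 0.35, adjusted p = 0.196 by edgeR).

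Of the sensors in 22Rv1, DHX58 moved in opposite directions with the guides. It had CPM of 2.85, 2.73 and 3.08 in control, 5.87, 4.99 and 8.98 with gRNA 1 and 0.607, 1.26 and 0.857 with gRNA 10. No group overlapped another, and the changes were 1.20 (SE 0.26, adjusted p = 0.00299 by edgeR) and -1.68 (SE 0.30, adjusted p = 0.00124 by edgeR), with -2.89 (SE 0.29, adjusted p = 3.4e-05 by edgeR) between the guides. DDX58 and IFIH1 passed the test with neither guide. For DDX58 the values were 0.02 (SE 0.19, adjusted p = 0.946 by edgeR) and -0.37 (SE 0.19, adjusted p = 0.157 by edgeR), the latter called without gRNA 1 replicate 3 (edgeR adjusted p = 0.0165), and for IFIH1 they were -0.00 (SE 0.17, adjusted p = 0.989 by edgeR) and 0.03 (SE 0.16, adjusted p = 0.899 by edgeR).

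ISG20, an exonuclease that degrades viral RNA, had CPM of 2.70, 2.16 and 2.42 in 22Rv1 control, 6.38, 5.92 and 9.66 with gRNA 1 and 4.96, 4.74 and 5.04 with gRNA 10. It rose with both guides, most with gRNA 1, at 1.60 (SE 0.20, adjusted p = 0.000107 by edgeR) and 0.99 (SE 0.21, adjusted p = 0.00291 by edgeR). RSAD2 had CPM of 1.5, 2.47 and 1.90 in control, 6.43, 5.92 and 3.52 with gRNA 1 and 3.84, 3.98 and 5.40 with gRNA 10. Control lay below both guides, at 1.45 (SE 0.27, adjusted p = 0.00148 by edgeR) and 1.14 (SE 0.27, adjusted p = 0.00688 by edgeR). LGALS3BP had CPM of 2.33, 2.16 and 2.47 in control, 4.25, 3.96 and 9.77 with gRNA 1 and 2.28, 2.17 and 2.07 with gRNA 10. It was higher with gRNA 1, at 1.37 (SE 0.32, adjusted p = 0.00482 by edgeR), and replicate 3, the library with the high mitochondrial share, read more than the other gRNA 1 libraries. IFIT5 was lower with gRNA 10, where its CPM was 3.34, 2.82 and 2.87 against 6.85, 9.48 and 6.27 in control and 6.94, 7.61 and 7.96 with gRNA 1. Only the gRNA 10 libraries stood apart, at -1.34 (SE 0.18, adjusted p = 0.000179 by edgeR). MX1 was higher with gRNA 1 and lower with gRNA 10, at 0.60 (SE 0.19, adjusted p = 0.0251 by edgeR) and -0.56 (SE 0.20, adjusted p = 0.0475 by edgeR), and both calls are lost when any 1 control library is left out (edgeR adjusted p up to 0.0712 and 0.111). The gRNA 10 call is also lost with DESeq2, with either other filter on low counts, and without gRNA 1 replicate 1 or 2 or gRNA 10 replicate 1 or 3 (edgeR adjusted p up to 0.176).

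GBP1 and GBP2 both rose in 22Rv1 with gRNA 1. GBP2 had CPM of 0.104, 0.0515 and 0.206 in control, 0.557, 0.463 and 1.25 with gRNA 1 and 0.759, 0.504 and 0.605 with gRNA 10. The control level was near the detection limit, and both guides lay above it, at 2.59 (SE 0.57, adjusted p = 0.00383 by edgeR) and 2.29 (SE 0.59, adjusted p = 0.00964 by edgeR). GBP2 passed the filter only through the RIPK2 libraries, so it had to differ, and its calls are no support for the counts. GBP1 was higher with gRNA 1, at 2.55 (SE 0.29, adjusted p = 4.86e-05 by edgeR), and its gRNA 10 value was -0.34 (SE 0.37, adjusted p = 0.512 by edgeR). IFIT2, OAS3 and IFI35 were higher with both guides, by 1.52 and 1.5, 0.85 and 0.49, and 0.86 and 0.85. SAMD9 and IFI6 were lower with gRNA 10, at -2.50 and -1.54, where neither passed the test with gRNA 1 (1.17 and 0.22). Some of these calls rest on single libraries. Those of IFIT2 are lost without control replicate 2 or 3 with either guide, and without gRNA 10 replicate 3 with gRNA 10 (edgeR adjusted p up to 0.0796 and 0.176). That of SAMD9 is lost without control replicate 2 or gRNA 10 replicate 1 or 2 (up to 0.115), and SAMD9 is called higher with gRNA 1 without control replicate 2 (0.0457).

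The control libraries differed between lines in how much of the list they carried. In PC3, 39 of 48 genes were higher than in 22Rv1 and 5 lower, where 39.4% of all genes tested were higher and 41.1% lower. Against DU145, PC3 had 30 higher and 11 lower, where 37.1% of all genes tested were higher and 38.8% lower. In DU145, 28 were higher than in 22Rv1 and 12 lower, where 37.9% of all genes tested were higher and 38.0% lower. The median difference was 2.22, 1.08 and 1.20 in that order. EIF2AK2 passed no test between lines, with means of 103 ± 12.6 CPM in 22Rv1, 99.8 ± 2.17 in DU145 and 112 ± 10.3 in PC3 (SD, n = 3).

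**Figure D5:**
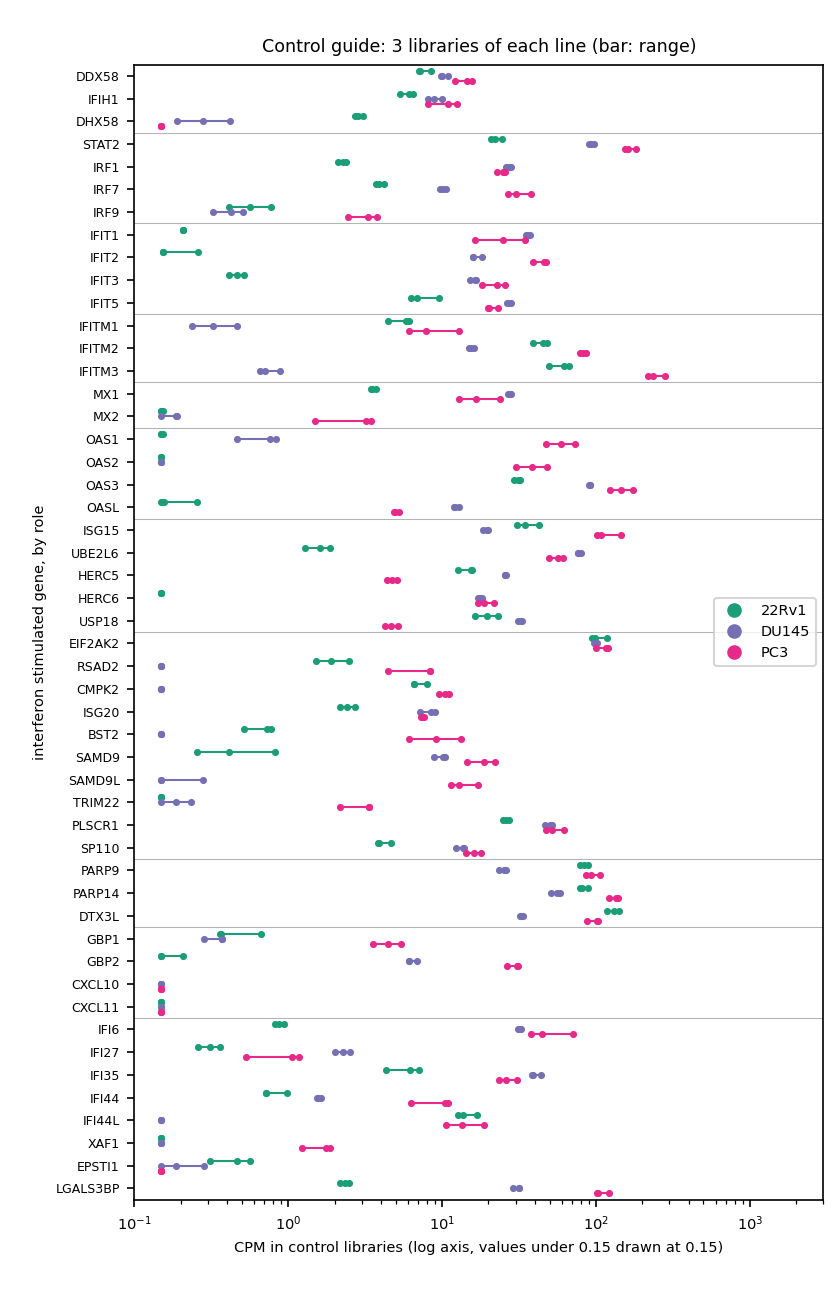
CPM of each of the 50 genes in the 3 control libraries of each line, on a log axis, with points for libraries and a bar for their range. Values under 0.15 CPM are drawn at 0.15. IFI44L of DU145 and HERC6 of 22Rv1 lie there, while in PC3 those genes lie above 10 CPM.

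Several genes were near or under the detection limit in one line and plainly present in another. OAS1 had CPM of 73.4, 59.2 and 47.5 in PC3 control, 0.465, 0.837 and 0.757 in DU145 and 0.104, 0.155 and 0.0514 in 22Rv1. IFITM3 had 280.4, 218 and 234 CPM in PC3, 67.1, 49.3 and 61.7 in 22Rv1 and 0.651, 0.884 and 0.71 in DU145. IFI44L had 0, 0 and 1 counts in DU145, where 22Rv1 and PC3 had 14.4 ± 2.12 and 14.3 ± 4.21 CPM (SD, n = 3) and did not differ in the test (-0.02, SE 0.18, adjusted p = 0.933 by edgeR). CMPK2, a mitochondrial kinase that lies beside RSAD2, had 2, 2 and 0 counts in DU145 against 7.02 ± 0.839 CPM in 22Rv1. HERC6 and IFIT1 were close to the limit in 22Rv1, with 0, 2 and 2 counts for HERC6 and 4, 4 and 4 for IFIT1. In DU145 and PC3 these genes were well above it: HERC6 had 17.6 ± 0.507 and 19.3 ± 2.41 CPM and IFIT1 36.3 ± 1.02 and 25.4 ± 9.15 CPM (SD, n = 3).

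STAT2 was lowest in 22Rv1 and highest in PC3, with control means of 22.4 ± 1.82, 93 ± 3.81 and 166 ± 13.9 CPM (SD, n = 3). Each step was called, at 2.05 (SE 0.13, adjusted p = 6.69e-14 by edgeR) from 22Rv1 to DU145 and 0.84 (SE 0.12, adjusted p = 4.68e-07 by edgeR) from DU145 to PC3. IRF7 had the same order, at 3.94 ± 0.248, 10.1 ± 0.486 and 31.6 ± 5.52 CPM. IRF1 was low in 22Rv1 (2.25 ± 0.129 CPM) and did not differ between DU145 and PC3 in the test (-0.14, SE 0.10, adjusted p = 0.211 by edgeR). DDX58 had 7.58 ± 0.797, 10.3 ± 0.62 and 14.1 ± 1.72 CPM, each step called. IFIH1 was lowest in 22Rv1, and its DU145 and PC3 levels did not pass the test of their difference (0.23, SE 0.15, adjusted p = 0.155 by edgeR) unless PC3 control replicate 3 was left out (edgeR adjusted p = 0.0181). DHX58 had the reverse order, with 2.89 ± 0.179 CPM in 22Rv1, 0.296 ± 0.116 in DU145 and 2, 0 and 1 counts in PC3.

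gRNA 10 was the only RIPK2 guide used in all 3 lines, so its effect could be compared between them by an interaction test. The change differed between PC3 and DU145 for 28 of 48 genes (48.1% of all genes tested), between PC3 and 22Rv1 for 29 (47.6%) and between DU145 and 22Rv1 for 27 (44.7%). Of the 28, the change was more positive in PC3 for 21, and of the 29 for 25. Of the 27, it was more positive in DU145 for 17. Shares by direction were not taken over all genes, so these splits are descriptions only. MX1 changed more in PC3 than in DU145, at 4.68 (SE 0.25, adjusted p = 5.05e-14 by edgeR), and DDX58 at 1.66 (SE 0.20, adjusted p = 1.78e-07 by edgeR). STAT2 changed less in DU145 than in 22Rv1, at -1.06 (SE 0.17, adjusted p = 1.67e-05 by edgeR), while the PC3 and 22Rv1 changes did not pass the test of their difference (-0.17, SE 0.17, adjusted p = 0.432 by edgeR). IRF1 went the other way, with a less positive change in PC3 than in DU145 (-0.97, SE 0.14, adjusted p = 4.18e-06 by edgeR) and than in 22Rv1 (-1.60, SE 0.18, adjusted p = 3.09e-08 by edgeR). For PARP14 the difference between PC3 and DU145 did not pass the test (0.06, SE 0.13, adjusted p = 0.724 by edgeR), and the change in 22Rv1 was below that in either (1.60 and 1.54).

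Genes upstream of the list were read from 42 other genes of the interferon pathway. Of 9 interferon genes, 2 were listed in 22Rv1 and 3 each in DU145 and PC3, and apart from IFNE the largest count was 1. IFNE, an epithelial interferon, had CPM of 3.38, 3.30 and 3.41 in PC3 control, 3.67, 3.35 and 3.09 with gRNA 2 and 1.80, 1.13 and 1.37 with gRNA 10. It was lowest with gRNA 10, at -1.21 (SE 0.18, adjusted p = 7.3e-07 by edgeR). Any link between IFNE and the level of the list was not tested. All 6 receptor genes were tested in each line. In PC3, IFNGR2 and IFNLR1 were lower with gRNA 2, and 2 of the 6 were higher and 3 lower with gRNA 10. Over all genes tested there, 31.5% were lower with gRNA 2, and 37.9% were higher and 35.6% lower with gRNA 10. IFNAR1 and IFNAR2, the receptor chains for type I interferon, changed in PC3 by -0.23 and 0.19 with gRNA 10, and the IFNAR2 call is lost without control replicate 3 or gRNA 10 replicate 1 or 2 (edgeR adjusted p up to 0.314). In DU145, IFNLR1, the chain for interferon lambda, had CPM of 17.8, 16.3 and 19.1 in control, 7.07, 7.18 and 4.22 with gRNA 2 and 6.73, 7.50 and 6.39 with gRNA 10. It was lower with both guides, at -1.52 (SE 0.18, adjusted p = 0.000224 by edgeR) and -1.38 (SE 0.18, adjusted p = 0.000214 by edgeR).

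The kinase JAK1, which serves all these receptors, had control means of 4.52 ± 0.138 CPM in 22Rv1, 202 ± 5.63 in DU145 and 73.1 ± 1.14 in PC3 (SD, n = 3). Its difference between DU145 and 22Rv1 was 5.47 (SE 0.18, adjusted p = 7.62e-20 by edgeR). It rose with gRNA 10 in DU145, at 0.82 (SE 0.15, adjusted p = 0.00173 by edgeR), and with both guides in PC3, at 0.31 and 0.43. STAT3, which serves other cytokines, had at most 14 counts in any PC3 library, and at least 724 in any library of the other lines. SOCS3, a feedback inhibitor of JAK kinases, had CPM of 53.1, 49.5 and 53.3 in DU145 control, 98, 72.1 and 85.4 with gRNA 2 and 136, 159.6 and 152 with gRNA 10. No group overlapped another, and the gRNA 10 change was 1.51 (SE 0.11, adjusted p = 6.54e-06 by edgeR).

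Another interferon regulatory factor and a sensor also differed. IRF5, a factor downstream of Toll-like receptors, had CPM of 5.6, 4.58 and 6.53 in 22Rv1 control, 27, 24.6 and 45.5 with gRNA 1 and 10.7, 9.78 and 9.23 with gRNA 10, at 2.55 (SE 0.23, adjusted p = 1.06e-05 by edgeR) with gRNA 1. IFI16, a DNA sensor, had CPM of 13.5, 13.2 and 11.4 in PC3 control, 12.2, 11 and 11.3 with gRNA 2 and 4.37, 4.40 and 3.30 with gRNA 10. Only gRNA 10 was low, at -1.64 (SE 0.11, adjusted p = 4.02e-14 by edgeR). Over the whole set of 42, 28 were tested in PC3, with 6 higher and 10 lower with gRNA 2 and 13 higher and 9 lower with gRNA 10. In DU145, 5 were higher and 4 lower of 30 with gRNA 2, and 10 higher and 3 lower with gRNA 10. In 22Rv1, 8 were higher and 4 lower of 25 with gRNA 1, and 8 higher and 3 lower with gRNA 10. Over all genes tested, 32.1% were higher and 31.5% lower with gRNA 2 in PC3, and 37.9% and 35.6% with gRNA 10. The shares were 17.1% and 17.0%, then 20.2% and 19.8%, for the same guides in DU145, and 25.6% and 22.9% with gRNA 1 and 20.0% and 20.6% with gRNA 10 in 22Rv1. The median change of the 28 with gRNA 10 in PC3 was 0.01.

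The list was also split by its promoter letters, as a description without a test. With gRNA 10 in PC3, 22 of 26 tested genes with an ISRE match were higher and 3 lower, and of 13 without a match 8 were higher and 3 lower, where 37.9% of all genes tested were higher and 35.6% lower. With gRNA 2, 20 of the 26 and 12 of the 13 were lower, against 31.5% of all genes. The median difference between the guides in PC3 was 1.92 with a match and 2.03 without. In 22Rv1 with gRNA 10, 4 of 25 genes with a match were higher and 10 lower, and of 9 without a match 4 were higher (median change -0.34 and 0.61), where 20.0% of all genes tested were higher and 20.6% lower. Genes without a match in the window, such as HERC6, STAT2 and OAS1, were among those that moved with the list in PC3. The genes are not independent of each other in position: all 50 are protein coding in GENCODE 29, they lie on 17 chromosomes, and 26 lie within 100 kb of another gene of the list.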

How the data were processed

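The authors deposited raw read counts per gene, 1 table for each line with 9 libraries, per the file headers. The libraries were strand-specific mRNA libraries sequenced in pairs, per the labels' protocols. FastQC, STAR, edgeR and the hg38 build are named in the submitters' processing notes, and the strand setting of the counting is not given in the sources used here. Counts were tested with edgeR 4.0.16 in R 4.3.3 (TMM factors, filterByExpr at its settings of 10 counts per library and 15 in total, robust quasi-likelihood fit). Each line was fitted with its 9 libraries. Comparisons between lines used 1 fit of 27 libraries over 20089 symbols shared by the tables, of which 16322 passed the filter. P-values were adjusted by Benjamini-Hochberg over all genes tested, and called below 0.05. The script was tested on simulated data.

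The members and the lists of pathway genes were chosen with earlier results of these data known, so no count is independent support of a pattern. Genes were given library by library where called with an absolute log2 change of at least 1 and a mean of at least 100 counts in a group, up to 8 members and 4 pathway genes in a contrast. Sensors and transcription factors were always given. RIPK2, genes of counts of 5 or fewer, and some further members (such as ISG15, OAS2, GBP1 and RSAD2) were added after their values were seen. Some pathway and marker genes, including some that this rule selects in PC3, are not reported here. Intervals of low-count ratios are exact and cover counting error only. Alternatives were RLE factors, DESeq2 1.42.0, other filters on low counts, a fit of only the libraries compared, the replicate number as a block, and leaving out each library in turn. Overlaps between genes came from GENCODE 29 and promoter windows from RefSeq GRCh38.p14.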

Additional observations from a re-analysis of the deposited data

Results flagged for a closer look

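The effect of gRNA 10 was tested for a difference between lines, and it differed for 27 of 48 genes between DU145 and 22Rv1, for 29 between PC3 and 22Rv1, and for 28 between PC3 and DU145. Of all genes tested, 44.7%, 47.6% and 48.1% differed in the same comparisons. These values are interaction terms of the 27-library edgeR fit, each on the log2 scale and past an adjusted p of 0.05, with 3 libraries in each group. Groups of 3 were too small for a search for single outlying libraries.

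Against DU145, the change in PC3 was more positive for MX1 (4.68), MX2 (4.08), IFITM1 (3.06), IFI6 (2.24), IFIT1 (1.92), DDX58 (1.66), IRF7 (1.47) and STAT2 (0.89). It was less positive for IRF1 (-0.97) and GBP2 (-2.29). Against 22Rv1, the change in PC3 was more positive for IFI44L (6.59), MX1 (5.02), DDX58 (2.26) and PARP14 (1.60), and less positive for HERC6 (-4.92) and IRF1 (-1.60). Between DU145 and 22Rv1, the change in DU145 was more positive for IFI44 (4.87), DHX58 (3.14) and PARP14 (1.54), and less positive for HERC6 (-5.89) and STAT2 (-1.06). HERC6, IFI44 and IFI44L rest on groups with few counts in 22Rv1. DHX58 had few counts in DU145 control, and passed the filter within DU145 only through the gRNA 10 libraries. MX2 and IFITM1 did not pass the filter on low counts within DU145, where MX2 had 11 counts over the control libraries and 7 over those of gRNA 10, and IFITM1 22 and 12. Such genes entered the fit of 27 libraries through the lines where they were high, so their differences between lines are descriptions and show no more than that.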

How the results depend on the processing

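Of the counts of members called, higher or lower in each comparison, all stayed within 1.5 times the reported count under RLE factors, DESeq2, no filter on low counts and the replicate block. With at least 10 counts in every library, gRNA 10 in 22Rv1 called 12 members, 6 higher and 6 lower, gRNA 10 stood above gRNA 1 in 22Rv1 for 3, and 9 were higher with gRNA 10 in DU145, where fewer genes enter the test. With only the groups compared, 1 member was higher with gRNA 2 in DU145, and 28 were called with gRNA 10, 10 of them lower. Leaving out 1 library at a time gave 4 to 8 members higher with gRNA 10 than gRNA 1 in 22Rv1, and 1 to 5 higher with gRNA 2 in DU145. For gRNA 10 in DU145 it gave 9 to 22 called, 8 to 16 higher and 1 to 6 lower, and 0 to 1 lower than with gRNA 2. The causes of these shifts were not tested, and the shares of all genes called were not taken under any alternative. PC3 counts called stayed between 35 and 42 with gRNA 2, 40 and 44 with gRNA 10, and 40 and 45 between the guides.

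Signs turned only for changes that passed no test. In 22Rv1 with gRNA 1, DDX58 was -0.0317 without a filter, -0.00207 with the replicate block and -0.117 to 0.211 with 1 library left out, and IFIH1 was 0.0222 with at least 10 counts in every library, 0.00639 with only the groups compared and -0.143 to 0.0813 with 1 left out. With 1 library left out, IFIH1 in 22Rv1 with gRNA 10 ran from -0.0860 to 0.116, IRF9 in PC3 with gRNA 10 from -0.0140 to 0.279, MX1 in PC3 with gRNA 2 from -0.0898 to 0.362, IFI6 in 22Rv1 with gRNA 1 from -0.0074 to 0.317, GBP1 in 22Rv1 with gRNA 10 from -0.511 to 0.0149, and IFI44L in PC3 against 22Rv1 controls from -0.269 to 0.152. In PC3, MX2 and ISG15 with gRNA 2, not called, passed the threshold under DESeq2 and the replicate block, and RSAD2 with gRNA 10 under the block. MX1 in 22Rv1 with gRNA 10 lost its call under the block, DESeq2 and both other filters.

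By the replicate numbers of the titles, same-numbered libraries deviated together with correlations from -0.0805 to 0.339 in 22Rv1, over 9 pairs in each line. The range was -0.191 to 0.0719 in DU145 and -0.0491 to 0.0615 in PC3. Differently numbered libraries gave -0.330 to 0.232, -0.133 to 0.177 and -0.0836 to 0.0684 in the same order of lines. The library names number some groups differently, and pairing by those numbers was not tested. With the replicate block, 24 and 24 members were called with gRNA 1 and gRNA 10 in 22Rv1, 17 and 16 with gRNA 2 and gRNA 10 in DU145, and 42 and 44 in PC3. Depth limits the genes near 0.140 to 0.170 CPM.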
